A study of Mus musculus with 9 samples.

Results

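The collagen genes of the mouse optic cup outside the major pair of collagen IV chains are described here. They were chosen by name: every gene whose symbol in the platform annotation has the form Col, number, a, number was taken, if at least 1 probe set carried that symbol alone, and Col4a1 and Col4a2 were left out. That gave 40 of the 18193 genes with such a probe set on the array, measured by 79 probe sets, and each gene was read from the probe set whose mean across the 9 arrays was highest. RNA came from laser-microdissected optic cups at E11.5, on 1 Affymetrix mouse array per sample. The 3 regions, with 3 biological replicates each lettered A, B and C, were the optic fissure (cup cells lying up to 5 cell diameters from its margin) and the central parts of the nasal and of the temporal side. No genotype, strain or treatment is named in the labels, and the sources used here do not say how many embryos went into a sample or whether the samples of a letter share embryos. The p-values therefore measure the spread between these samples.

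Collagens are secreted or membrane proteins in which 3 chains wind into a triple helix, and a collagen type can be built from chains of several genes. Fibrillar collagens assemble into the fibrils of connective tissue. FACIT collagens, the fibril-associated types, decorate the surface of such fibrils. Other classes form networks, beaded filaments or basement membrane components, or stay in the plasma membrane of the cell that makes them. In the eye, types II, IX and XI are known as the fibril collagens of the vitreous, which lies inside the cup, while types I, III and V are known from the mesenchyme around it and from the cornea and sclera that form later. At E11.5 the margins of the ventral cup face each other across the fissure, and mesenchyme and vessels pass through it.

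The deposited intensities of the probe sets are linear, and their trimmed mean was 150 on every array. Of the neural retina markers used to check the tissue, 7 of 7 with a probe set exceeded the 40th percentile of each of the 9 arrays. Fissure array B stood apart. Its log2 values correlated across genes at 0.964 to 0.971 with the other fissure arrays, at 0.960 to 0.970 with nasal arrays and at 0.961 to 0.968 with temporal arrays, while fissure arrays A and C correlated at 0.987. The 3-prime over 5-prime signal of Gapdh, a measure of RNA integrity and labelling, was 8.12, 4.93 and 14.96 on fissure arrays A, B and C, against 6.08, 4.90 and 8.77 in nasal and 7.42, 4.46 and 6.70 in temporal cup, and was thus lowest on array B in every region. Array B also read lowest in all 3 regions for 8 of the 34 collagen genes tested, against 17.6% of all tested genes. The 8 are Col1a2, Col2a1, Col3a1, Col6a3, Col8a2, Col11a1, Col13a1 and Col23a1. The mean signal of the 12 probe sets for poly-A spike-in controls was 161, 219 and 372 on fissure arrays A, B and C, against 102, 133 and 200 in nasal and 83.8, 116 and 181 in temporal cup. It was highest in the fissure within every letter. The part of RNA quality and of labelling in the results below was not tested.

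Of the 40 collagen genes, 34 were bright enough to be tested, that is, they exceeded the 40th percentile of 3 or more arrays, and 24 exceeded it on all 9. The 6 others were Col6a4, Col6a5, Col9a3, Col10a1, Col14a1 and Col17a1, whose values lay between 0.3 and 20.1 and which are therefore not compared between regions. All changes are differences of log2(intensity + 16) with their standard error (SE) from limma, and a gene passed at a Benjamini-Hochberg adjusted p below 0.05 over 12770 genes. Adding 16 understates the change of dim genes.

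The first comparison asks how collagen transcripts at the fissure margin differ from those of the rest of the cup. In the fissure, 8 collagen genes were higher and 2 were lower than the mean of nasal and temporal cup. Among all tested genes 5.72% were higher and 2.88% lower, or 8.60% in either direction. An unadjusted p below 0.05 was reached by 16 of the 34 collagen genes and by 22.1% of all tested genes. The 8 comprise 4 of 11 fibrillar genes (Col3a1, Col1a2, Col5a2 and Col11a1), 2 of 7 tested FACIT genes (Col9a1 and Col9a2), Col18a1 and Col26a1. Outside the fissure, Col9a2 exceeded the 40th percentile on temporal array A alone and Col26a1 on temporal array C alone. Both thus met the brightness filter through the fissure arrays, and the counts here and against each side include them. The 2 that were lower, Col13a1 and Col25a1, both encode transmembrane collagens. Over the 34 genes the median log2 change was 0.32, against 0.04 over all tested genes. The groups did not overlap, with fissure arrays on the upper side for 10 collagen genes and on the lower side for 2, against 8.41% and 5.76% of all tested genes. In bulk samples such as these, fewer cells of a type and less RNA per cell cannot be told apart. The count of passing collagen genes was 10 with all arrays, 3 without fissure array A, 4 without fissure array C and 13 when fissure array B was left out. The count over all tested genes moved too, from 1098 with all arrays: it was 545, 590 and 1721 in those 3 fits. Col13a1, Col25a1 and Col5a2 passed in each of them. With the letters as a replicate block 13 passed, where 17.0% of all tested genes did.

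**Figure D1:**
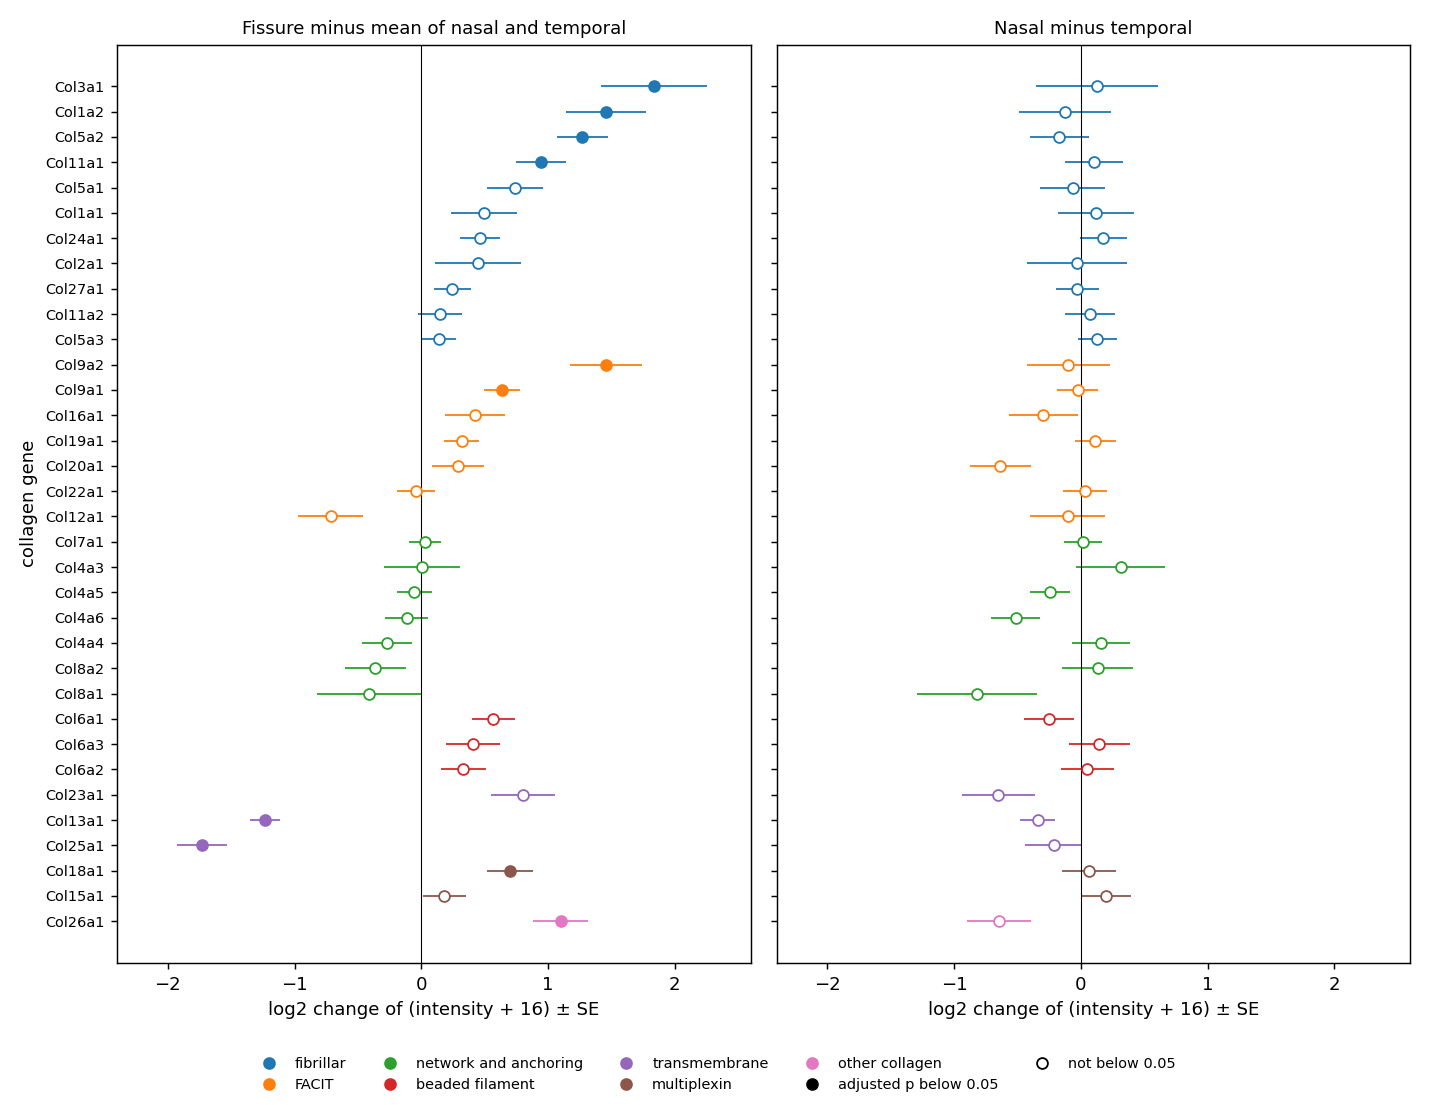
Change of each tested collagen gene on the log2(intensity + 16) scale with its SE, for fissure minus the nasal-temporal mean (left) and for nasal minus temporal cup (right), from limma on 9 arrays and ordered by structural class. Filled points passed at an adjusted p below 0.05: 10 of 34 in the left panel, with Col3a1 at the upper and Col25a1 at the lower end, and 0 in the right panel.

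Read from their brightest probe sets, the 11 fibrillar genes had positive log2 changes, from 0.14 to 1.84, and 4 passed, but a further Col5a1 probe set stood at -0.04. Col3a1, the only chain of type III collagen, read 900.8, 361.4 and 719.7 on fissure arrays A, B and C, against 194.3, 96.0 and 253.8 in nasal and 227.3, 61.9 and 243.0 in temporal cup. Every fissure array lay above all 6 others, and array B was the lowest of its region in each case. The log2 change was 1.84 (SE 0.42, adjusted p = 0.0183). Without fissure array A the adjusted p was 0.112, and without fissure array C it was 0.0869. With all arrays and the replicate block it was 7.67e-05.

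Col1a2 encodes the alpha-2 chain of type I collagen. It read 431.4, 224.4 and 455.0 in the fissure, against 106.2, 72.6 and 181.7 in nasal and 165.5, 72.6 and 157.5 in temporal cup (log2 change 1.46, SE 0.31, adjusted p = 0.0138). The fissure arrays again stood above all others. The adjusted p was 0.0850 without fissure array A and 0.0818 without fissure array C. With all arrays and the replicate block it was 1.26e-04. Its partner in type I collagen, Col1a1, was dim, with fissure values of 31.0, 8.9 and 48.8, against 12.8 to 18.8 in nasal and 6.5 to 18.6 in temporal cup, and with groups that overlapped (log2 change 0.49, SE 0.26, adjusted p = 0.299).

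Type V collagen is known for starting fibrils and setting their width. Its chain gene Col5a2 read 273.4, 204.6 and 385.4 in the fissure, against 83.8, 105.3 and 110.2 in nasal and 120.1, 85.8 and 140.8 in temporal cup. The lowest fissure value, on array B, lay above the highest of the others, on temporal array C. The change of 1.27 (SE 0.20, adjusted p = 0.00236) passed without any single array. A further Col5a2 probe set read 143.5, 157.7 and 184.4 in the fissure, against 109.1, 93.6 and 67.8 in nasal and 147.7, 144.8 and 89.9 in temporal cup, where fissure and temporal values overlapped. Its change was 0.54 and did not pass (adjusted p = 0.137 in the fit of single probe sets). Col5a1, the chain gene that type V collagen needs, read 223.0, 229.6 and 229.7 in the fissure. Its nasal values of 83.9, 111.9 and 211.9 were spread widely, and temporal cup gave 123.7, 122.0 and 156.5. The groups did not overlap, but the change of 0.74 (SE 0.22) did not pass (adjusted p = 0.0649). With the replicate block its adjusted p was 0.0193, and without nasal array C, the high one, it was 0.00471.

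Col11a1, a chain of type XI collagen, read 348.2, 179.9 and 260.1 in the fissure, against 141.6, 107.7 and 142.4 in nasal and 133.3, 95.7 and 132.8 in temporal cup (log2 change 0.94, SE 0.20, adjusted p = 0.0124). Nasal and temporal arrays of the same letter gave close values. The adjusted p was 0.0836 without fissure array A and 0.0581 without fissure array C. Type XI and type V chains are known to mix in the vitreous. Col2a1, the main fibril chain of cartilage and vitreous, read 370.7, 160.4 and 450.7 in the fissure, against 199.5, 156.6 and 309.0 in nasal and 212.2, 138.6 and 349.7 in temporal cup. Its groups overlapped, since the spread within a region was as wide as the gap between regions (log2 change 0.45, SE 0.34, adjusted p = 0.492). The 5 other fibrillar genes, Col1a1 among them, had changes of 0.14 to 0.49 and did not pass.

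**Figure D2:**
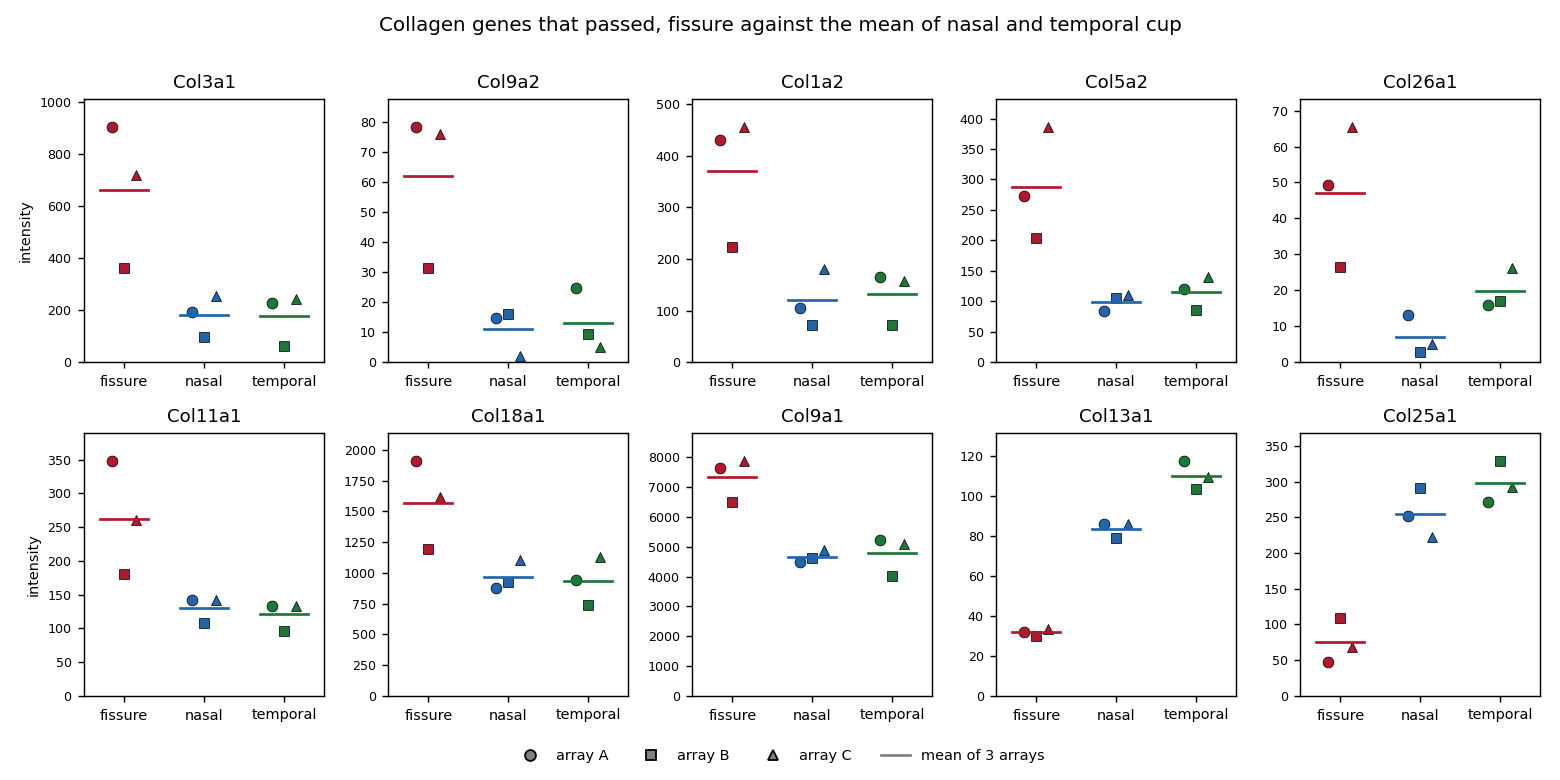
Intensity on a linear axis for the 10 collagen genes that passed in the fissure set against both sides of the cup, with 3 arrays per region (circle A, square B, triangle C) and a line at the mean. In 8 genes the fissure arrays lie above all others, with array B the lowest fissure array, and in Col13a1 and Col25a1 they lie below all others.

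Col9a1 and Col9a2 encode chains of type IX collagen, which is known to coat type II fibrils in cartilage and vitreous. Col9a1 was bright everywhere, at 7648.3, 6504.3 and 7875.8 in the fissure, against 4501.3, 4619.3 and 4877.4 in nasal and 5233.7, 4008.6 and 5083.4 in temporal cup. Means were 7343 ± 735 in fissure samples, 4666 ± 192 in nasal samples and 4775 ± 668 in temporal samples (SD, n = 3 each). The lowest fissure array was above the highest of the others, and the log2 change was 0.64 (SE 0.14, adjusted p = 0.0151). Without fissure array A or C the adjusted p was 0.0892 or 0.0898.

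Col9a2 gave 78.1, 31.5 and 76.0 in the fissure, against 14.8, 16 and 2.1 in nasal and 24.7, 9.4 and 5.2 in temporal cup (log2 change 1.46, SE 0.28, adjusted p = 0.00764, and 0.0573 without fissure array A). Several nasal and temporal values lay below the 40th percentile of their arrays, which ran from 15.7 to 17.5, so the size of this change rests on a low background. The gene of the remaining chain, Col9a3, read 7.6, 9.8 and 14.4 in the fissure, against 5.3 to 17.8 in nasal and 13.1 to 18.4 in temporal cup, and was too dim to test. Of the other FACIT genes, Col12a1, Col16a1, Col19a1, Col20a1 and Col22a1 had changes from -0.71 to 0.43 and did not pass.

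Among the transmembrane collagens the fissure was low for a pair of genes. Col13a1, known from cell adhesion sites and the neuromuscular junction, read 31.9, 30.2 and 33.3 in the fissure, against 86.0, 79.2 and 86.0 in nasal and 117.6, 103.6 and 109.6 in temporal cup. The 3 regions were separate from each other, with very little spread within each. Its log2 change was -1.23 (SE 0.12, adjusted p = 8.08e-05), and it passed under all 19 alternatives. Col25a1, a neuronal membrane collagen whose shed part is found in amyloid plaques, read 47.8, 109.5 and 68.6 in the fissure, against 252.2, 290.7 and 222.3 in nasal and 272.0, 329.2 and 292.9 in temporal cup. Array B was the highest of each region, and still the fissure values were all below the others (log2 change -1.73, SE 0.20, adjusted p = 2.47e-04). It too passed under all 19 alternatives.

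Col23a1, another transmembrane collagen, went the other way, at 165.2, 84.1 and 170.7 in the fissure, against 49.3, 37.2 and 77.3 in nasal and 100.5, 65.0 and 117.1 in temporal cup. Fissure array B fell inside the temporal range, and the change of 0.80 (SE 0.25) did not pass (adjusted p = 0.0753). It passed with the replicate block (adjusted p = 0.00221), without fissure array B (0.0145) and without nasal array C (0.0493). A further Col23a1 probe set read 83.7, 53.9 and 89.6 in the fissure, against 30.7, 22.6 and 42.8 in nasal and 44, 27.2 and 47.7 in temporal cup. There the fissure arrays lay above all others, and the change of 0.83 passed in the fit of single probe sets (adjusted p = 0.0344). The fourth gene of the class, Col17a1, was too dim to test.

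Col18a1, a basement membrane collagen whose C-terminal fragment is endostatin and whose loss damages the human eye in Knobloch syndrome, read 1911.2, 1191.5 and 1614.7 in the fissure. Nasal arrays gave 879.2, 929.4 and 1103.2 and temporal arrays 943.5, 741.0 and 1125.9. The lowest fissure array was just above the highest temporal one, and the change was 0.70 (SE 0.18, adjusted p = 0.0374). This call was lost in 6 of the fits that left out 1 array, with an adjusted p of 0.212 and 0.145 without fissure arrays A and C, 0.0843 and 0.0695 without nasal arrays A and B, and 0.0688 and 0.0660 without temporal arrays A and B. Col15a1, the related basement membrane collagen, read 38.6 to 52.4 in the fissure, against 31.4 to 52.2 in nasal and 28.5 to 46.1 in temporal cup, and did not pass (adjusted p = 0.588).

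Col26a1, a less studied secreted collagen, read 49.2, 26.4 and 65.3 in the fissure, against 13.2, 2.8 and 5.1 in nasal and 15.9, 17.2 and 26.1 in temporal cup. Fissure array B was only slightly above temporal array C. The change was 1.10 (SE 0.22, adjusted p = 0.00828), with 0.0533 without fissure array A and 0.0540 without fissure array C. It was 0.0740 when all probe sets of the gene were averaged, which here lowers the level, since the other probe set read 1.1 to 12.7.

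None of the 7 network and anchoring genes tested passed in limma, nor did any (0) reach an unadjusted p below 0.05. Among all tested genes 8.60% passed and 22.1% reached such a p, so few would be expected among 7 genes. Col4a5, a minor collagen IV chain, read 416.9, 537.4 and 444.2 in the fissure, against 468.9, 479.9 and 384.3 in nasal and 540.6, 529.2 and 510.8 in temporal cup, with overlapping groups (log2 change -0.06, SE 0.14, adjusted p = 0.861). The major collagen IV chain genes did not pass either. Col4a1 averaged 712 ± 152 in fissure samples, 649 ± 168 in nasal samples and 758 ± 158 in temporal samples (SD, n = 3 each). Its limma log2 change was 0.02 (adjusted p = 0.966), and that of Col4a2 was 0.12 (adjusted p = 0.840). Col8a1, a short-chain collagen of Descemet's membrane in the adult cornea, varied more within regions than between them, at 215.8, 445.0 and 121.9 in the fissure, against 236.6, 264.7 and 191.2 in nasal and 524.2, 723.8 and 186.6 in temporal cup.

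Type VI collagen forms beaded microfibrils close to cells, from chains encoded by Col6a1, Col6a2 and Col6a3 among others. None of these 3 passed in limma, and 1 had an unadjusted p below 0.05, where 8.60% and 22.1% of all tested genes did. Col6a1 read 62.0, 53.9 and 69.9 in the fissure, against 25.1, 31.6 and 40.4 in nasal and 33.7, 57.8 and 35.0 in temporal cup. Temporal array B reached into the fissure range, and the change of 0.57 (SE 0.17, adjusted p = 0.0634) passed with the replicate block (adjusted p = 0.0341) and without temporal array B (adjusted p = 0.0243). Col6a3 gave 76.5, 46.4 and 99.0 in the fissure, against 49.9 to 57.0 in nasal and 31.2 to 64 in temporal cup, with overlap (adjusted p = 0.289).

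Markers of other cell types also differed between the regions, in both directions. Of 16 tested markers of periocular mesenchyme, 5 were higher and 3 lower in the fissure (8 and 3 with the replicate block). Among all tested genes 5.72% were higher and 2.88% lower, and with the block 17.0% passed in either direction. The 3 lower ones were Dcn, Postn and Foxd1, but Foxd1 was above nasal and below temporal cup (log2 changes 1.68 and -3.75). Of 17 with a probe set, 1 (Dlx5) was below the 40th percentile on every array. Among the 5 higher ones, Eya2 exceeded the 40th percentile on the fissure arrays alone, and Lmx1b on those and on nasal array C. Both thus met the brightness filter through the fissure arrays. Lum, the lumican gene, read 495.3, 225.6 and 466.8 in the fissure, against 117.1, 73.4 and 125.1 in nasal and 158.0, 54.4 and 137.5 in temporal cup. Pdgfrb, a receptor of mesenchyme and pericytes, read 487.8, 181.2 and 551.3, against 92.4, 49.4 and 196.9 in nasal and 152.6, 65.0 and 153.7 in temporal cup. Both were lowest on array B of each region, as Col3a1 and Col1a2 were. So were 17.6% of all tested genes, and Col13a1, which was lower in the fissure. Dcn and Postn did not share this, as their lowest fissure array was C. The decorin gene Dcn read 79.0, 63.1 and 50.7 in the fissure, below all nasal values (198.6, 128.5 and 121.3) and temporal values (136.0, 113.8 and 149.5), and Postn, which encodes periostin, was also lower (log2 change -1.43, adjusted p = 0.00234).

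Summed over the 16 mesenchyme markers other than Foxd1, which marks the temporal cup here, the intensity was 1884.2, 967.6 and 2019.8 on fissure arrays A, B and C, against 1162.1, 783.8 and 1159.4 in nasal and 1213.3, 664.9 and 1317.1 in temporal cup. The fissure sum was the highest within every letter, and across letters array B of the fissure lay inside the range of the others. The 15 macrophage and leukocyte markers summed to 3008.3 to 3691.2 in fissure samples, against 573.8 to 844.8 on the nasal and 455.7 to 721.6 on the temporal side. C1qa, C1qc and Aif1 among them exceeded the 40th percentile on the fissure arrays alone, so no count over the tested ones is given. For the 15 lens markers the sums were 2548.5 to 3677.4 in fissure, 699.1 to 763.6 in nasal and 655.2 to 1332.3 in temporal samples. Of 8 tested, 5 were higher in the fissure (6 with the block). Among all tested genes 5.72% were higher, and with the block 17.0% passed in either direction. Crybb1, among the 5, met the filter of 3 arrays only with the fissure arrays counted. Cryga, Crygb, Crygd, Foxe3, Mip and Bfsp1 were below the 40th percentile on every array.

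Endothelial markers summed to 528.2 to 1107.5 in fissure, 478.9 to 707.2 in nasal and 567.8 to 796.6 in temporal samples, with Pecam1 below the 40th percentile throughout. Of 11 tested, 0 passed in limma and 2 had an unadjusted p below 0.05. Blocked by letter, these counts were 1 (Egfl7, adjusted p = 0.0307) and 5. Of 6 erythroid markers 0 passed in limma, 3 had an unadjusted p below 0.05, and 3 were higher with the block. Among all tested genes 22.1% reached such a p, 5.72% passed as higher, and with the block 17.0% passed in either direction. Of 4 tested cartilage markers, the transcription factor genes Sox5 and Sox6 were higher in the fissure (log2 changes 1.30 and 0.59), while Sox9 (0.45, adjusted p = 0.372) and Matn3 (-0.02) did not pass. Acan, too dim to test, read 3.2, 11 and 1.9 in the fissure, against 14.4 to 17 in nasal and 15.9 to 17.9 in temporal cup, and Matn1, Chad and Cnmd were below the 40th percentile on all arrays.

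Further lists held members that were lower in the fissure along with others that were higher. Beside the counts that follow, 2.88% of all tested genes were lower and 5.72% higher, and with the block 17.0% passed in either direction. The 11 surface ectoderm markers summed to 484.3 to 572.7 in fissure, 1202.6 to 1571.3 in nasal and 900.2 to 1343.1 in temporal samples. Of 8 tested, 4 were lower, namely the desmoplakin gene Dsp (-2.03), the keratin genes Krt8 (-1.89) and Krt18 (-1.33) and Grhl3 (-0.65), and 1, Cdh1, was higher (0.87). Krt14 and Krt15 were below the 40th percentile on every array. The 8 pigment epithelium markers summed to 10426.5 to 12573.6 in fissure, 12511.7 to 14725.2 in nasal and 11466.5 to 14399.0 in temporal samples, so these groups overlapped. The melanosome genes Mlana (-1.63), Oca2 (-1.39), Tyr (-1.17) and Slc45a2 (-0.55) were lower (5 lower with the block), and Mitf was higher (0.93). The 7 neural retina markers summed to 6393.4 to 6815.1 in fissure, 7533.7 to 8271.8 in nasal and 7487.6 to 8219.2 in temporal samples. Among them Pax6 was lower (-0.94, adjusted p = 0.00147) and Vax2 was higher (1.08, adjusted p = 0.00482), and 2 were higher with the block. The part of these cell types in the collagen changes was not tested.

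**Figure D3:**
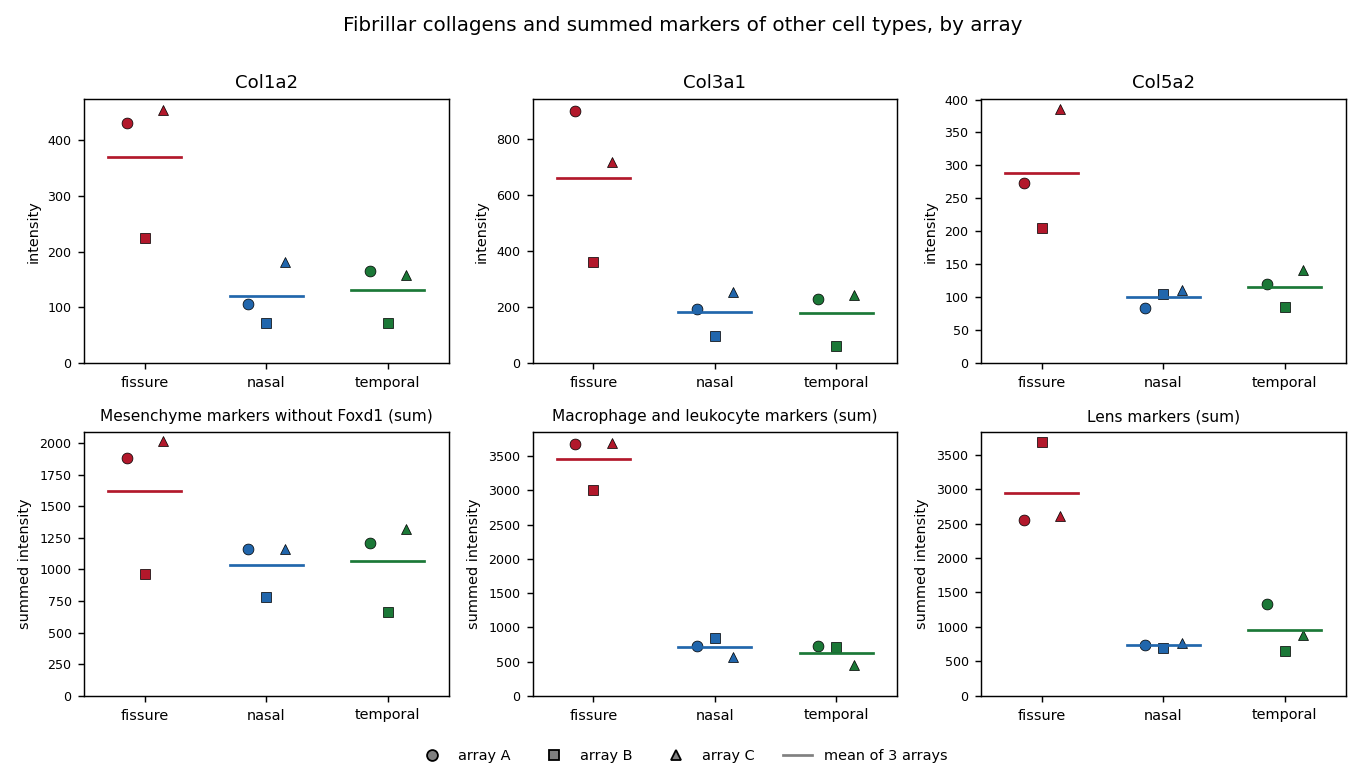
Intensity of Col1a2, Col3a1 and Col5a2 (upper row) and summed intensity of 16 mesenchyme, 15 macrophage and leukocyte and 15 lens markers (lower row), on linear axes, with 3 arrays per region and a line at the mean. Fissure array B is the lowest fissure array for the 3 collagens and the mesenchyme sum, where it lies at 967.6, and the highest for the lens sum.

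The fissure was then set against each side of the cup. These comparisons share the fissure arrays, so their results are not independent. Against nasal cup, 7 collagen genes were higher and 2 lower, where 4.41% and 1.97% of all tested genes were (6.37% in either direction). Against temporal cup, 6 were higher and 2 lower, where 3.47% and 1.90% of all tested genes were (5.36% in either direction). Col13a1 changed by -1.06 against nasal (SE 0.14, adjusted p = 9.13e-04) and by -1.40 against temporal cup (SE 0.14, adjusted p = 1.46e-04). For Col25a1 the changes were -1.62 (adjusted p = 0.00144) and -1.83 (adjusted p = 6.42e-04), and for Col5a2 they were 1.36 (adjusted p = 0.00507) and 1.19 (adjusted p = 0.0123, and 0.0528 without temporal array B).

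Col9a2, Col1a2, Col11a1 and Col9a1 also passed against both sides, with changes of 1.51, 1.52, 0.89 and 0.65 against nasal and 1.41, 1.39, 0.996 and 0.62 against temporal cup. Each of these 8 calls was lost without fissure array A, where the adjusted p ranged from 0.0899 to 0.186. Each was also lost without fissure array C, where it ranged from 0.0772 to 0.178. Like the main fit, the fits without 1 array did not pair arrays by letter. The Col9a1 call against temporal cup was kept only without fissure array B among the 9 fits that left out 1 array. Col3a1 passed against temporal cup (log2 change 1.90, adjusted p = 0.0426, and 0.180 without fissure array A) and stood at an adjusted p of 0.0531 against nasal cup, where its change was 1.77. With the replicate block that second value was 2.98e-04. Col26a1 and Col23a1 passed only against nasal cup, with changes of 1.43 (adjusted p = 0.00553) and 1.13 (adjusted p = 0.0408), where against temporal cup they were 0.78 (adjusted p = 0.109) and 0.48 (adjusted p = 0.431). The call of Col26a1 held with any single array left out, while that of Col23a1 was lost without fissure array A or C, nasal array A or B, or temporal array A (adjusted p from 0.0620 to 0.167). The difference between the sides, tested as nasal minus temporal, did not pass for either gene (adjusted p = 0.9999 for both).

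The count of passing collagen genes against nasal cup was 9 with all arrays. It was 4 without fissure array A, 4 without fissure array C, 5 without nasal array B and 14 when fissure array B was left out. Against temporal cup it was 8, with 3 without fissure array A, 3 without fissure array C, 5 without nasal array A, 4 without temporal array A, 2 without temporal array B and 4 without temporal array C. Over all tested genes the fits without 1 array called from 420 to 1245 against nasal cup (814 with all arrays) and from 372 to 1161 against temporal cup (685). With the replicate block the counts of collagen genes were 13 and 10, where 12.5% and 12.1% of all tested genes passed. The genes added by the block were Col3a1, Col5a1, Col6a1 and Col18a1 against nasal, and Col18a1 and Col26a1 against temporal cup.

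The last comparison asks whether collagen transcripts differ along the nasal-temporal axis. No collagen gene passed in limma, while 0.0470% of all tested genes did. An unadjusted p below 0.05 was reached by 5 of 34, against 2.91% of all tested genes. Blocked by letter, 0 passed in limma too, where 0.133% of all tested genes did. The 5 were Col20a1, Col4a6, Col26a1, Col13a1 and Col23a1, with changes of -0.64, -0.51, -0.65, -0.34 and -0.65, each lower in nasal than in temporal cup. For Col13a1 and Col26a1 every nasal array was below every temporal one. Col4a6 read 33.8, 47.3 and 49.9 in nasal, against 66.5, 58.2 and 82.6 in temporal cup, which also leaves a gap. A further Col4a6 probe set overlapped, at 51.6, 31.9 and 38.1 against 45.0, 43.1 and 51.9, with a change of -0.16. Col20a1 was dim, at 18.1, 1.1 and 4.3 in nasal, against 18.3, 25.5 and 15.2 in temporal cup. In all, nasal arrays were below temporal arrays without overlap for 4 collagen genes (Col13a1, Col26a1, Col4a6 and Col4a5) and above them for 0, against 3.71% and 3.09% of all tested genes. The largest difference among the 34 was that of Col8a1 at -0.82, with an SE of 0.47 (adjusted p = 0.9999). The median over the 34 was -0.03, against -0.00 over all tested genes.

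For 17 collagen genes more than 1 probe set was bright enough to be fitted, and 14 of the 19 further probe sets changed in the same direction as the one used here in the first comparison. Among genes that passed there were 7 further probe sets, all with the same sign, and 3 had an adjusted p below 0.05 when every probe set was fitted on its own (23503 in all). These 3 belong to Col1a2, Col3a1 and Col9a1. The second Col9a1 probe set read 1332.3, 975.2 and 1103.9 in the fissure, against 539.3, 525.5 and 539.4 in nasal and 606.2, 620.7 and 665.3 in temporal cup, a change of 0.94 (SE 0.14, adjusted p = 0.00205) against 0.64 for the first. Probe sets disagreed in sign for Col5a1 (0.74 and -0.04), Col12a1 (-0.71 and 0.59), Col8a1 (-0.41 and 0.20) and Col22a1. Any direction read from the values above for these 4 genes holds for the brightest probe set alone, not for the gene as such. For Col25a1 a dimmer probe set changed by -0.25 and did not pass (adjusted p = 0.447), against -1.73 for the one used.

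**Figure D4:**
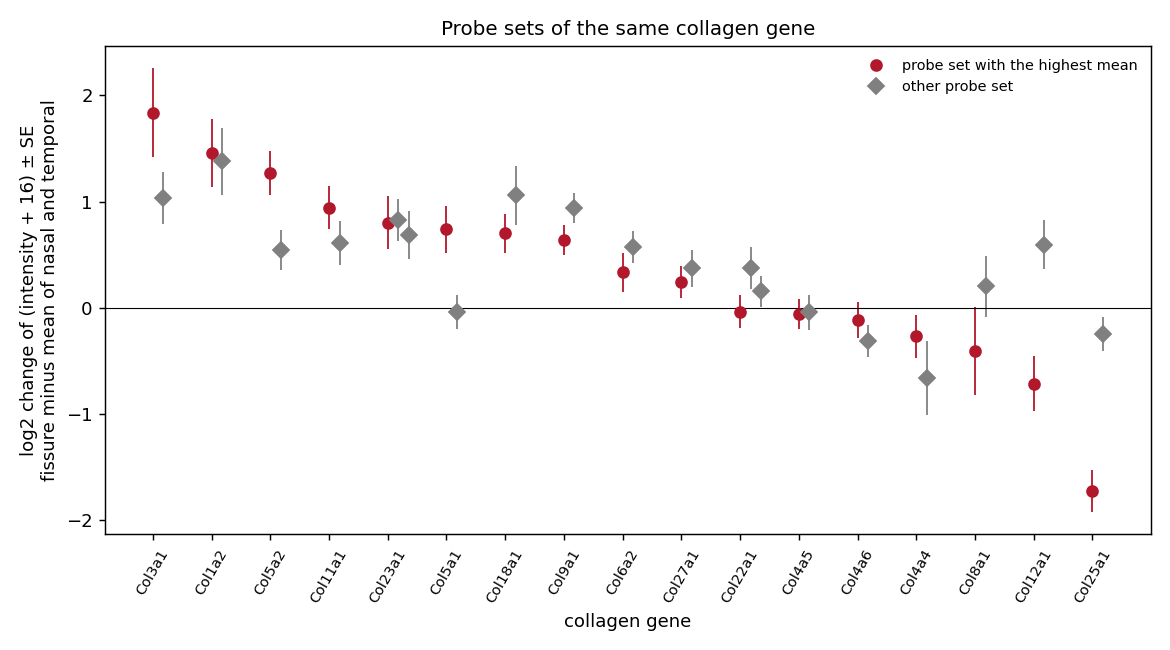
Log2(intensity + 16) change with SE, fissure minus the nasal-temporal mean, for the 17 collagen genes with more than 1 probe set bright enough to fit. Circles show the probe set with the highest mean and diamonds the others: both Col1a2 points lie near 1.4, while Col5a1, Col12a1 and Col8a1 have points on both sides of 0.

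Genes that make, process and bind collagens were compared in the same fits. Of 19 tested genes of collagen hydroxylation and folding, 0 passed in limma and 3 had an unadjusted p below 0.05 (median log2 change 0.10), against 22.1% of all tested genes. The replicate block gave 2 higher, where 17.0% of all tested genes passed. Plod1, a lysyl hydroxylase, averaged 65.9 ± 13.2 in fissure samples, 35.0 ± 8.91 in nasal samples and 44.6 ± 9.96 in temporal samples (SD, n = 3 each, limma log2 change 0.56, adjusted p = 0.0704, and 0.0396 with the replicate block). P4ha1, a prolyl hydroxylase subunit gene, had a change of -0.41 (adjusted p = 0.194). Of 9 tested genes of procollagen processing and cross-linking, 1 was higher and 2 were lower (3 and 2 with the replicate block). Among all tested genes 5.72% were higher and 2.88% lower, and 17.0% passed with the block. Tll1, a tolloid-like protease that trims procollagen ends, read 4.2, 7.9 and 4.4 in the fissure, against 22.4, 21.9 and 31.6 in nasal and 54.2, 97.9 and 38.2 in temporal cup. All fissure values were below the 40th percentile of the arrays (log2 change -1.38, adjusted p = 0.00165). Tll1 thus met the brightness filter through the nasal and temporal arrays alone, and the count of lower genes includes it. Adamts3, a procollagen N-proteinase, was lower (-0.62, adjusted p = 0.0209), and Loxl3, a lysyl oxidase relative, was higher at 82.3, 79.7 and 83.0 in the fissure, against 40.7 to 48.0 in nasal and 46.0 to 64.5 in temporal cup (0.59, adjusted p = 0.0178). Pcolce, an enhancer of that processing, had a change of 0.77 (adjusted p = 0.0884, and 0.0108 with the block) and Pcolce2 one of -0.40 (adjusted p = 0.102).

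Of 8 tested collagen receptor genes, 0 passed in limma and 2 had an unadjusted p below 0.05, a share near the 22.1% of all tested genes. With the replicate block 1 was higher and 2 were lower, where 17.0% of all tested genes passed. The 2 with an unadjusted p below 0.05 were Adgrg6, an adhesion receptor known to bind collagen IV (-0.43, adjusted p = 0.105, with the block 0.0366), and the discoidin receptor gene Ddr2 (0.60, adjusted p = 0.144, with the block 0.0111). With the block Ddr2 was the higher gene, and Adgrg6 and Mrc2 (-0.39, adjusted p = 0.0491) were the lower ones. Of 11 tested genes of collagen-associated matrix, Lum was higher (1.69, adjusted p = 0.00619), and Dcn (-0.97, adjusted p = 0.00618) and Vcan, the versican gene (-0.68, adjusted p = 0.0137), were lower. With the replicate block 3 were higher and 3 lower. Among all tested genes 5.72% were higher and 2.88% lower, and 17.0% passed with the block. Lum and Dcn encode small proteoglycans that bind collagen fibrils, and both are also among the mesenchyme markers above. Bgn (0.78, adjusted p = 0.0750, with the block 0.00290) and Fbln1 (0.66, adjusted p = 0.0884, with the block 0.0273) did not pass without the block. Between nasal and temporal cup no gene of these 4 lists passed in limma, and 0, 1, 0 and 2 genes reached an unadjusted p below 0.05. Among all tested genes 2.91% reached such a p.

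Promoter windows, from 250 bases before to 50 after an annotated start, were in the RefSeq table (GRCm38.p6) for 31 of the 40 genes, with 34 windows. They are shown for Col3a1 and Col1a2, which were both higher in the fissure, for Col13a1 and Col25a1, which were both lower, and for the upstream and downstream starts of Col9a1. The shorter Col9a1 transcript from the downstream start is known from the eye, and which start a probe set reads was not analysed here. The windows lie on the plus strand at chr1:45311288-45311587 (Col3a1), chr6:4505368-4505667 (Col1a2), chr3:130180595-130180894 (Col25a1), chr1:24177360-24177659 and chr1:24194953-24195252 (Col9a1), and on the minus strand at chr10:61979059-61979358 (Col13a1). Capitals mark TATAAA (the TATA box letters), the CCAAT box letters and the GC box letters, GGGCGG, on either strand, and no matches overlap here. A match is a description of letters and not a binding site.
Col3a1: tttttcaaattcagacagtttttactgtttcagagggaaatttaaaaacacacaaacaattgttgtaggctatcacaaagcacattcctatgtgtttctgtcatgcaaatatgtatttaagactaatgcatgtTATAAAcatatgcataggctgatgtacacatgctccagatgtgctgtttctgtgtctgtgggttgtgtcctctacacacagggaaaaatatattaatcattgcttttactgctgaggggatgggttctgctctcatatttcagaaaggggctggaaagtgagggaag
Col1a2: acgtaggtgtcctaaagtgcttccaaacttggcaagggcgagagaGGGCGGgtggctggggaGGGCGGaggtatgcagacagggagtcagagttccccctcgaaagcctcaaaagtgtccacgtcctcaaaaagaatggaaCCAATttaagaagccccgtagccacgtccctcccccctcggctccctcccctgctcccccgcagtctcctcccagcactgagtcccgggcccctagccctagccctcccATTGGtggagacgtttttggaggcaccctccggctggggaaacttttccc
Col9a1 upstream start: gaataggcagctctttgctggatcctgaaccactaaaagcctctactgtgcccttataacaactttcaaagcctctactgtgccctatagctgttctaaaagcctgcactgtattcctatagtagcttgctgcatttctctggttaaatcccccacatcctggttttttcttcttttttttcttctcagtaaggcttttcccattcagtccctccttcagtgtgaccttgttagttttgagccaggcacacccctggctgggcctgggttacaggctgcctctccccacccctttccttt
Col9a1 downstream start: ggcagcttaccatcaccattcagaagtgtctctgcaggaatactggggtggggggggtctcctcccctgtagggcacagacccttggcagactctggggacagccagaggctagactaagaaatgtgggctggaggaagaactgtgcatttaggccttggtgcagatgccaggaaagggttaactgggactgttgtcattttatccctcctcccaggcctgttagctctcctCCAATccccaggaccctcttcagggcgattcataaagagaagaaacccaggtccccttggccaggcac
Col13a1: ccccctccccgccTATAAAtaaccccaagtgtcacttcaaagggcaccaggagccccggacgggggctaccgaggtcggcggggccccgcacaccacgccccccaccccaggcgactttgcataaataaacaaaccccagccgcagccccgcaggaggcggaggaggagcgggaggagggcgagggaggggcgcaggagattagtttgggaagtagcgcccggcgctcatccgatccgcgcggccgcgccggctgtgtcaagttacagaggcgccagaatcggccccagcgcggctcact
Col25a1: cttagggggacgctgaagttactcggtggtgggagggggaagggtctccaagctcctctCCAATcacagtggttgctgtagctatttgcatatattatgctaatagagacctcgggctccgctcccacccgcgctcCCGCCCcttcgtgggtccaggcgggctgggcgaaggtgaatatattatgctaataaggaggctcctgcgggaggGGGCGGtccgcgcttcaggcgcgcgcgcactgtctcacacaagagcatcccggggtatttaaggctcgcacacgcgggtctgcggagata

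The pair of fibrillar genes with the largest rises do not share these letters in the windows shown. Positions are counted from the annotated start, with negative values before it. Col3a1 has TATAAA at -117, and Col1a2 has CCAAT at -109, a further reverse match at the start itself and GGGCGG at -205 and -188. The upstream Col9a1 window holds none of the 3, and the downstream one has CCAAT at -18. Col13a1 has TATAAA at -237, and Col25a1 has CCAAT at -191 and GGGCGG at -114 and -40. Over the 34 collagen windows TATAAA was found in 14.7%, CCAAT in 32.4% and GGGCGG in 58.8%, against 13.6%, 37.4% and 35.7% of all 32851 windows of that length.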

How the data were processed

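Total RNA from 9 captures was labelled with biotin and hybridised to Affymetrix mouse 430 2.0 arrays, per the labels. The deposited intensities are linear, 1 per probe set. The sources used here do not give how the authors summarised and scaled them, but the mean after trimming 2% from each end was 150 on every array, and no further scaling was applied. Of 45101 probe sets, 34945 had 1 gene symbol in the platform annotation, 932 had several, 9160 were unnamed there and 64 were controls. No symbol needed updating against RefSeq GRCm38.p6.

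Log2(intensity + 16) was fitted with limma 3.58.1 in R 4.3.3, with 1 mean per region over all 9 arrays, for the 12770 genes that exceeded the 40th percentile of 3 or more arrays, and p-values were adjusted over all of them. No detection calls were used, and the number of arrays limits the precision. Deviations from region means correlated at 0.166 to 0.487 for the 9 same-letter pairs, against -0.438 to 0.218 for the 18 others, so arrays of a letter shared variation. The main fit and the fits with 1 array left out ignore the letters, and the replicate block is the fit that pairs arrays by letter. The replicate block is printed where it changes the call of a collagen gene or the count of a list, and for Col1a2 and Col3a1. The fit was tested on simulated data with independent noise and no letter effect, for fissure minus the mean of nasal and temporal cup. It recovered 14% of added changes of 0.5, 62% of 1, 92% of 2 and 64% of -1, with 5 false calls. Changes of 0.5 were thus mostly missed there.

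Genes were named if they passed in any comparison with or without the block, or were the brightest of their class. Of the gene lists, members that passed and up to 2 more per list were named. The collagen genes, lists and tests were chosen with earlier results of these data known. Alternatives covered the pseudocount, filter, normalization, probe set summary, variance model, array weights, block, regions in the fit and each array left out. Fits without the 3 arrays of letter B and of each probe set on its own were chosen after seeing the data. Figures used matplotlib 3.10.9.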

Additional observations from a re-analysis of the deposited data

How the results depend on the processing

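With 1 array left out the count of passing collagen genes ranged from 3 to 13 for fissure against both sides together (10 with all arrays), from 4 to 14 against nasal cup (9), from 2 to 12 against temporal cup (8) and stayed at 0 for nasal against temporal cup. With array weights the first 3 counts were 19, 14 and 19, while over all genes 4100, 2675 and 3133 passed (1098, 814 and 685 without weights). With a pseudocount of 1 they were 7, 4 and 3. Without the filter the count against temporal cup was 4, and with only the regions compared it was 5. With the replicate block the 4 counts were 13, 13, 10 and 0, and without the 3 arrays of letter B, chosen after seeing the data, 14, 12, 9 and 0. The causes were not tested. Over the 27 gene changes that passed, 421 of 525 refits kept the call, 104 lost it and 0 reversed the sign, and 8 of the 27 passed in every refit. Those 8 were Col13a1 and Col25a1 in all 3 fissure comparisons, and Col5a2 in the 2 other than against temporal cup. Dim collagens limit the rest: 6 of the 40 genes could not be compared, and the nasal and temporal levels of Col9a2 and Col26a1 lay in part below the 40th percentile.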
